A study of Rattus norvegicus with 232 samples.

Results

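The circadian clock genes described here are 10 genes of the daily transcription cycle, namely Per1, Per2, Per3, Cry1, Cry2, Nr1d1, Nr1d2, Dbp, Npas2 and Ciart, chosen by name out of 20859 RefSeq genes measured in rat brain. All 10 were found in the gene table under these symbols, so that each member is 1 feature. The question was how far their levels followed the strain of a rat and how far they moved together among rats of the same strain. Opposite movement of Npas2 and Dbp was examined separately, because both belong to the same cycle at opposite times of day.

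The samples come from the Hybrid Rat Diversity Panel, a collection of inbred strains. By the labels and methods of the study each rat was an untreated, drug-naive male and a young adult, and the labels give the tissue as whole brain, although the methods of the study state that a single side of each brain was sequenced. The RefSeq gene table holds 214 libraries of 197 animals from 74 strains. Of these strains, 30 belong to the recombinant inbred family HXB/BXH, bred from a BN-Lx/Cub by SHR/OlaIpcv cross, and 19 to the family FXLE/LEXF, bred from F344/Stm and LE/Stm. The other 25 are classic inbred strains, and the progenitors are counted among them. HXB/BXH rats and their progenitors were kept at another site than the commercially bred strains and their brains were shipped frozen, so breeding site and the HXB/BXH family cannot be told apart. The labels give neither the time of day at which a rat died nor its age, and the share of the values below that goes with time of collection was not tested.

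In the molecular clock, the activators Clock or Npas2 pair with Bmal1 and bind E-boxes (CACGTG) in the genes of the Per and Cry repressors. The Per and Cry proteins then hold back their own activators, and the cycle takes about a day. Nr1d1 and Nr1d2 encode the REV-ERB receptors, which repress Bmal1 and Npas2 through ROR elements. Dbp, Tef and Hlf encode activators that bind D-boxes, and Ciart encodes a further repressor of Clock and Bmal1. In most tissues Dbp, Ciart, Per and Nr1d1 transcripts peak near each other, and Bmal1 and Npas2 transcripts peak at the opposite time.

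Promoter windows are shown for 4 genes on which the results turn: Ciart, which of the members moved most closely with Dbp, Bmal1, which moved most strongly against it between strains in the RefSeq table, and the repressors Per2 and Nr1d1. Each window runs from 250 bases before to 50 bases after a RefSeq start site on the GRCr8 assembly, 5′ to 3′ on the strand of the gene, and capitals mark a clock element. The Ciart window is chr2:186112197-186112496 on the minus strand, and its capitals are 3 E-boxes that begin 93, 35 and 21 bases upstream of the start. The Per2 window is chr9:99496944-99497243 on the minus strand, with a D-box (TTATGTAA) 192 bases upstream and the E-box variant CACGTT 62 bases upstream. The Nr1d1 window at the second of 2 start sites is chr10:84229405-84229704 on the minus strand, with an E-box 191 bases upstream. The Bmal1 window is chr1:176766078-176766377 on the plus strand, with the ROR element TAGGTCA 16 bases upstream.
Ciart: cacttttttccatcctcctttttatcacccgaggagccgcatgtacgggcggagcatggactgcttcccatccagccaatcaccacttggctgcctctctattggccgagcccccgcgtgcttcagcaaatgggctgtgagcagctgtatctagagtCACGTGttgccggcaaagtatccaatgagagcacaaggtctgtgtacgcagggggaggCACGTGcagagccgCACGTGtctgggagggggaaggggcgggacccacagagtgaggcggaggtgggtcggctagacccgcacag
Per2: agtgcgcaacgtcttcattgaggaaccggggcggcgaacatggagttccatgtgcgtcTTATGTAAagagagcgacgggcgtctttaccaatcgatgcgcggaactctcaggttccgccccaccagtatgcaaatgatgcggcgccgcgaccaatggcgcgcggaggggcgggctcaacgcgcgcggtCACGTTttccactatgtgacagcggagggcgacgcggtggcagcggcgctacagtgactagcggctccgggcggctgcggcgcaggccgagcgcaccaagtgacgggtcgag
Nr1d1: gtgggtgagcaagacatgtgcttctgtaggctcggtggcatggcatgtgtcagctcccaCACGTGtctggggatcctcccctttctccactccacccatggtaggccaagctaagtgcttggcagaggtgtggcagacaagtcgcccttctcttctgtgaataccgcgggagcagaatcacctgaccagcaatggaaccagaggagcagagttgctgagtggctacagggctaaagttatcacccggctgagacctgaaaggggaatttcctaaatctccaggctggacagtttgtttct
Bmal1: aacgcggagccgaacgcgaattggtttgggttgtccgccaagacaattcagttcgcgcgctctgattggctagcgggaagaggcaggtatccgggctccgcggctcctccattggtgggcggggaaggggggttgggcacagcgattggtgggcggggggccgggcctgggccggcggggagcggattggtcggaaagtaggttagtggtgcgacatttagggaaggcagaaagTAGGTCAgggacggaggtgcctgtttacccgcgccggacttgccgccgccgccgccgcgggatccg

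Promoters were present for 9 of the 10 members, in 10 windows, and 5 windows of 4 members (Ciart, Per2, Nr1d1 and Cry2) held at least 1 of the letters searched. The search covered both strands for E-box CACGTG, its variant CACGTT, D-box TTATGTAA and the ROR elements TAGGTCA and TGGGTCA, none of which overlap each other in these windows. Of 33469 rat promoter windows of the same length, 6.42% hold the E-box, 4.83% the variant, 0.893% the D-box and 6.60% a ROR element. Among other clock genes, Tef, Bhlhe40 and Bhlhe41 each held 1 E-box. The windows of Dbp, Per1, Per3, Nr1d2 and Npas2 held none of these letters, which says nothing of sites elsewhere in those genes.

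Values are on a log2 scale, taken to be the authors' regularized log transformation, and carry no length scaling, so levels are compared between animals and not between genes. Read depth is unknown, because the table holds no counts. Library medians lay between 8.18 and 8.42 on the log2 scale. Replication is counted in animals: libraries made from the same animal were averaged, 69 strains had 2 or 3 animals (192 animals in all), and 5 strains had 1. In the RefSeq gene table SHR/OlaIpcv animal 1 has 12 libraries from 12 batches and animal 4 has 6, and the labels list further libraries of animal 1. These repeat libraries give the spread that arises with no difference between animals, the spread between batches included. The animal 1 library of batch 11 stood apart from the others, and the liver transcript Alb was 16.8 in it against a median of 11.4 over libraries (log2). Alb was also high in BXH6/Cub animal 3 (17.2) and in the single LE/Stm animal of this table (23.2), and its part in the values of these animals was not tested.

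Some libraries stood against their labels. The mean of 3 Y-linked genes (Eif2s3y, Kdm5d and Uty) was 9.06 in HXB17/Ipcv animal 2 and 9.35, 9.39 and 9.46 in the 3 LEW/Crl animals, against a median of 10.51 and a next lowest value of 9.94 (log2). Over the 1000 genes with the largest ratio of strain to animal variance, HXB17/Ipcv animal 2 had an r of 0.88 with the LEW/Crl mean and 0.12 with the rest of its own strain. By this measure 14 of 192 animals were nearer to another strain than to their own, among them HXB17/Ipcv animal 1 (0.51 with COP/CrCrl against 0.20), FXLE12/Stm animal 3 (0.66 with F344/NHsd against 0.40) and BXH9/Cub animal 3 (0.59 with BN-Lx/Cub against 0.40). Both SHRSP/A3NCrl animals were nearer to SHR/OlaIpcv (0.57 and 0.52 against 0.42). The study describes SHR and SHRSP as highly related, and each own-strain value there rests on a single other animal. BN-Lx/Cub is a progenitor of BXH9/Cub, and F344/NHsd is a substrain of the F344 line from which FXLE12/Stm was bred. Likeness to such strains need not mean a wrong label. Without LEW/Crl and HXB17/Ipcv, the strain effect below was called in 8 members (35.3% of all genes), and 35 pairs of members passed within strains and 27 across strain means. Among v5 libraries, 23 of 132 animals were nearer to another strain. The LEW/Crl animals were low there in the same Y-linked genes, F344/NCrl animal 2 was nearest to SHRSP/A3NCrl (r = 0.66, against 0.42 with its own strain) and SHRSP/A3NCrl animal 1 to F344/NCrl (0.61 against 0.53).

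The range of strain means was widest in Per1, Dbp, Ciart and Nr1d1 and narrowest in Cry1 and Npas2, which is no test of strain. Over 197 animals Dbp ran from 10.26 through a median of 10.89 to 11.42, and Ciart from 7.42 through 7.98 to 8.47 (log2 expression). Per1 had the widest range of strain means, 1.11 on the log2 scale or 2.16-fold, followed by Dbp at 0.81 (1.76-fold), Ciart at 0.79 (1.73-fold) and Nr1d1 at 0.78 (1.71-fold). Cry1, a repressor that acts late in the cycle, had the narrowest at 0.32 (1.25-fold), and Npas2 came next at 0.36 (1.28-fold). A regularized transformation shrinks differences, so these folds hold on this scale only.

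The spread of strain means was close to that between animals of the same strain for Dbp, Ciart and the Per genes, and smaller for Nr1d1 (SD 0.167 against 0.239), Cry2 (0.106 against 0.151) and Npas2 (0.0871 against 0.115). Each strain mean rests on few animals and carries part of their spread, so its SD overstates the spread between strains. For Dbp the SD was 0.184 over 69 strain means, 0.195 between animals of a strain and 0.188 between repeat libraries of the same animal (log2). Without the batch 11 library, the SD between repeat libraries was 0.140. For Ciart the 3 SDs were 0.165, 0.155 and 0.0943. Repeat libraries spread more widely than animals for Nr1d2 (0.156 against 0.125) and Cry1 (0.110 against 0.0836), and this order held without the batch 11 library (0.136 and 0.0995). Over 10429 genes above the table median, the median ratio of the repeat to the animal SD was 1.04, and that ratio was 0.607 for Ciart and 0.697 for Per2. The 12 libraries of SHR/OlaIpcv animal 1 came from 12 batches, whereas the animals of a strain came from few. The repeat SD can therefore hold more of the spread between batches than the animal SD, also in these ratios.

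**Figure D1:**
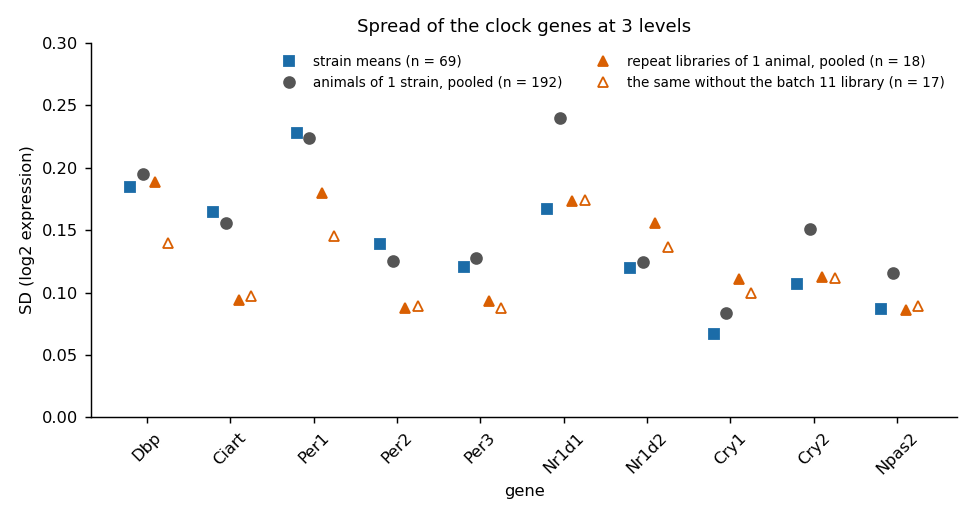
Standard deviation of each clock gene (y axis, log2 expression) over strain means, between animals of a strain and between repeat libraries of a single animal, with and without the library of batch 11. For Nr1d2 and Cry1 the repeat libraries spread more widely than animals, and for Ciart they lie at 0.0943 against 0.155. Repeat libraries span more batches than the animals of a strain, and strain means carry part of the animal spread.

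Transcript-level values of the same libraries were available for all 10 members. Ciart, Nr1d2 and Cry2 each had 1 transcript, and those of Ciart and Nr1d2 followed the gene closely within strains (r = 0.947 and 0.993). Nr1d1 had 2 transcripts, of which 1 carried nearly all of the gene's variation (r = 0.997) and the other had an r of 0.107. Dbp had 3 transcripts with an r of 0.477, 0.254 and 0.760 with the gene, so no single one stood for its level. Npas2 had 7, and the r ranged from 0.0426 to 0.702.

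Strain explained a large share of the variation in the period genes, Ciart, Nr1d2 and Dbp. By the limma moderated F-test over 69 strains, 7 of the 10 members differed between strains at a 5% false discovery rate, against 36.8% of all genes tested. The share of variance between strains (R2) was 65.6% for Per2, 64.0% for Ciart, 61.4% for Per1, 58.5% for Nr1d2, 57.9% for Per3, 57.6% for Dbp and 49.9% for Cry1. These stand against a median of 43.4% over all genes and 35.6%, the share that the number of strains alone would give. The limma adjusted p was 2.09e-08 for Per2, 8.64e-08 for Ciart, 4.09e-05 for Dbp and 0.0197 for Cry1. Npas2 (R2 46.3%, limma adjusted p = 0.0527), Nr1d1 (41.2%, 0.174) and Cry2 (41.3%, 0.191) did not pass. With batch as a covariate these 3 passed as well (limma adjusted p = 0.00252, 0.0170 and 0.0321), while the share of all genes called rose to 58.6%. Npas2 also passed without LEW/Crl and HXB17/Ipcv (limma adjusted p = 0.0418). Leaving out all animals of a replicate number lowered the count to 4, 5 and 6 members without replicates 1, 2 and 3, against 15.7%, 14.9% and 29.3% of all genes. The reconstructed gene table, in which 9 members were found, gave 3, against 20.6%.

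Within single panels the members called changed. In HXB/BXH (30 strains, 88 animals) the limma F-test called Per1, Per2, Per3, Nr1d2 and Ciart, 5 of 10 members against 19.1% of genes. In FXLE/LEXF (16 strains, 40 animals) it called Per1, Per3, Nr1d2, Dbp and Ciart, 5 of 10 against 5.0%, with R2 of 77.9% for Dbp and 77.2% for Ciart. In the classic inbred strains (23 strains, 64 animals) it called Per2, Cry1, Dbp and Ciart, 4 of 10 against 18.6%. Ciart was called in all 3 panels, whereas Dbp in HXB/BXH had an R2 of 42.5% and a limma adjusted p of 0.200. Whether a strain effect differed between panels was not tested. Without the animals of replicates 1, 2 and 3 in turn the counts were 2, 2 and 3 in HXB/BXH, against 8.3%, 9.12% and 8.2% of all genes. They were 0, 0 and 6 in FXLE/LEXF, against 0.916%, 0.475% and 8.54%, and 1, 1 and 3 in the classic strains, against 9.74%, 6.08% and 10.7%.

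The lowest mean Dbp levels were those of the progenitors of HXB/BXH, by a narrow margin for SHR/OlaIpcv. BN-Lx/Cub had 10.26, 10.80 and 10.49 in its 3 animals (mean 10.51), and SHR/OlaIpcv had 10.79 and 10.43 (mean 10.606). The SHR/OlaIpcv mean includes the batch 11 library (10.285), and PVG/Seac came next at 10.613. The highest mean belonged to FXLE20/Stm, with 11.29, 11.27 and 11.42 (mean 11.33), followed by LH/MavRrrc with 11.30, 11.29 and 11.30. The 3 LH/MavRrrc animals nearly coincided, whereas those of BN-Lx/Cub spread over 0.53. Ranked by mean, neighbouring strains differed in Dbp by a median of 0.0076 and at most by 0.0917, all within the SD of 0.195 between animals, so the order holds only between distant strains. The same was true of the other 9 members, whose largest gap between neighbours lay below their SD between animals.

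**Figure D2:**
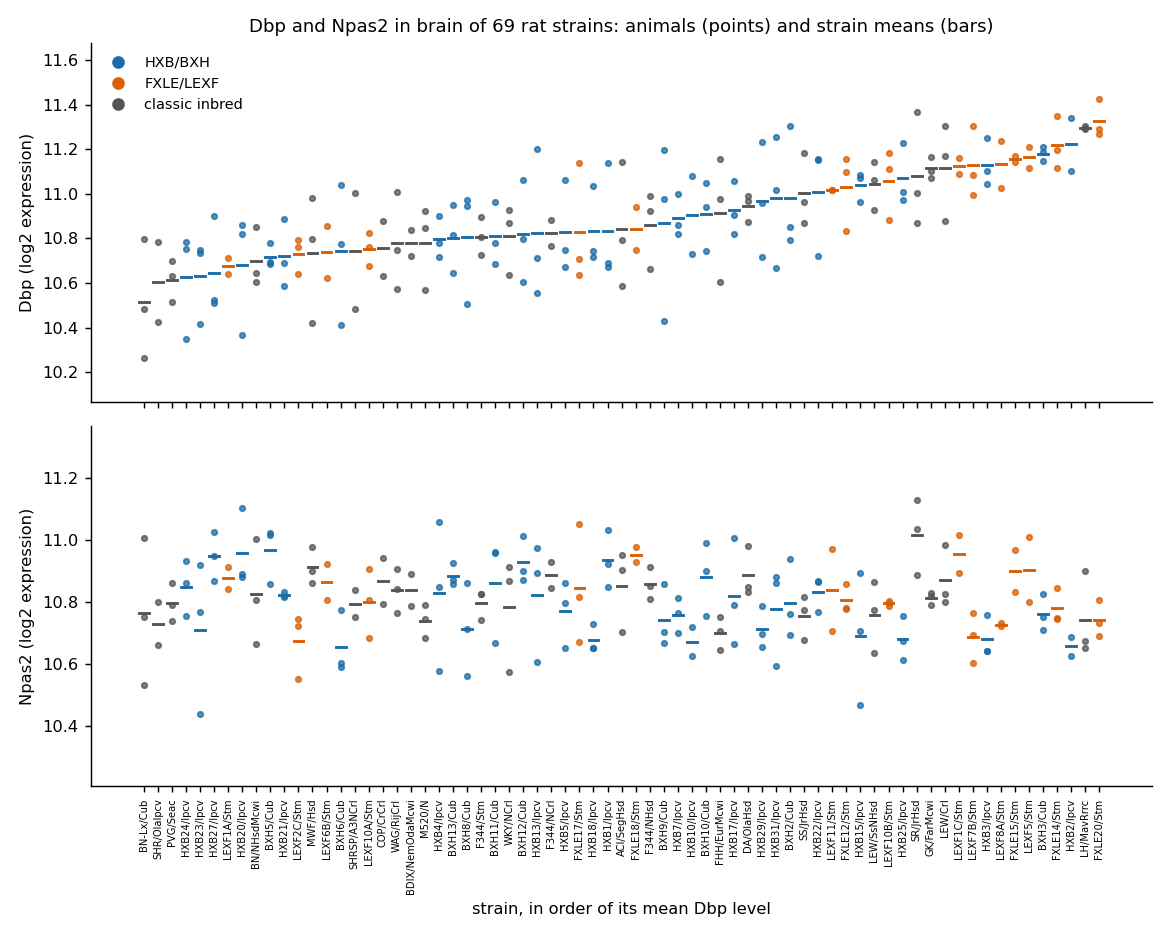
Dbp (top) and Npas2 (bottom) in 69 strains ordered by their mean Dbp level (x axis), with log2 expression on the y axis, points for animals, bars for strain means and colours for panels. Dbp rises from 10.51 in BN-Lx/Cub to 11.33 in FXLE20/Stm, and Npas2 shows no matching slope.

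Ciart had the same lowest strain as Dbp. BN-Lx/Cub had Ciart levels of 7.42, 7.68 and 7.65, and LH/MavRrrc, at the other end, had 8.47, 8.30 and 8.35. Among the period repressors, Per1 ran from HXB7/Ipcv (9.87, 9.92 and 9.83) to FXLE14/Stm (11.03, 11.05 and 10.86). Per2 ran from a mean of 9.51 in HXB23/Ipcv to 10.09 in LEXF5/Stm, and Per3 from 9.19 in HXB21/Ipcv to 9.68 in HXB22/Ipcv, strains of the same family. HXB23/Ipcv was also lowest for the receptor gene Nr1d1 (10.14) and for the repressor Cry2 (11.37), and LEXF1C/Stm was highest for both (10.92 and 11.86). Nr1d2 ran from 11.43 in HXB1/Ipcv to 11.91 in LH/MavRrrc, Cry1 from 8.90 in DA/OlaHsd to 9.22 in BXH12/Cub, and the activator Npas2 from 10.66 in BXH6/Cub to 11.02 in SR/JrHsd. Some ends moved with the technical axis described further on as a covariate. LEXF1C/Stm, with 2 animals, went from rank 69 to 54 in Nr1d1 and to 64 in Cry2. HXB1/Ipcv went from rank 1 to 11 in Nr1d2, and BN-Lx/Cub from 1 to 7 in Ciart. Both ends of Per1 and of Cry1 kept their ranks. The animals of the 2 end strains did not overlap for any of the 10 members, nor for 98.7% of all genes, since the ends are picked by their values. BN-Lx/Cub, HXB23/Ipcv and LEXF2C/Stm were among the lowest 5 strains for 5 members each, and LH/MavRrrc, FXLE14/Stm and LEXF1C/Stm among the highest 5 for 4 members each.

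For 7 of the 10 members most HXB/BXH strains lay above both of their progenitors, as they did for 24.7% of all genes. For Dbp all 30 strain means exceeded those of BN-Lx/Cub and SHR/OlaIpcv, with a family median of 10.83, and 0.594% of all genes did so in all 30. The margin was narrow, since the lowest family mean was 10.628 against 10.606 in SHR/OlaIpcv. That progenitor mean includes the batch 11 library (Dbp 10.285), and the count without this library was not taken. The count above both was 28 of 30 for Ciart, 29 for each of Per1, Nr1d1 and Cry2 and 23 for Per2. It was 14 for Per3, 17 for Npas2, 13 for Cry1 and 6 for Nr1d2. BN-Lx/Cub lay low on the technical axis of the repeat libraries described further on, and with that axis as a covariate the count above both was 27 for Ciart, 23 for Dbp, 19 for each of Per1 and Nr1d2, 17 for Nr1d1, 14 for Per2, 13 for Cry1, 11 for Npas2, 10 for Per3 and 6 for Cry2. Members with most strains above both were then 5 in number, against 17.1% of all genes, and 0.0527% of all genes had all 30 above. In FXLE/LEXF no strain exceeded both progenitors in Dbp. That count rests on a single LE/Stm animal in this table (11.37), the one with an Alb level of 23.2, while F344/Stm had a mean of 10.81 in 3 animals.

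No member differed between panels at a 5% false discovery rate in limma on strain means, in any of 3 contrasts. All genes tested gave 0.0% called for HXB/BXH against classic inbred, 0.0% for FXLE/LEXF against classic inbred and 0.00479% for HXB/BXH against FXLE/LEXF. At an unadjusted limma p under 0.05 there were 0, 2 and 3 members in these contrasts, against 2.39%, 10.2% and 5.35% of all genes. Of them, Nr1d1 was 10.65 in FXLE/LEXF and 10.51 in HXB/BXH (HXB/BXH minus FXLE/LEXF -0.15 ± 0.05 SE, adjusted p = 0.864), and Cry2 and Dbp had the same sign (-0.08 and -0.13). Against the classic strains Nr1d1 was 0.14 higher in FXLE/LEXF (± 0.05 SE, limma adjusted p = 0.389) and Cry2 0.08 higher. With animals as the unit, batch as a covariate and strain as a random block, Nr1d1, Cry2 and Dbp passed in FXLE/LEXF against classic inbred (10.4% of all genes called), and Cry2 in HXB/BXH against FXLE/LEXF (11.5%). None of the 22 other clock pathway genes passed in any of the panel contrasts.

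Most clock genes were correlated with each other among animals of the same strain. After each strain mean was subtracted, 37 of the 45 pairs were correlated at a 5% false discovery rate by a permutation test within strains (192 animals, 100000 permutations), 26 positively and 11 negatively. Such relations were general in these libraries, and 26.5% of all pairs of 10429 genes above the table median had an absolute r over 0.5 within strains, against 18 of the 45 pairs of members. The median absolute r was 0.33 over all these pairs and 0.42 over the pairs of members. Pairs of members passed at values as small as an r of -0.20 (Ciart and Cry1). The permutation test was not run on other gene pairs, so the share of them that would pass is unknown, here and in the counts below. Nr1d1 and Cry2 had the highest correlation (r = 0.79, rho = 0.79), followed by Dbp and Ciart (r = 0.71, rho = 0.70), and Per1 and Nr1d1 (r = 0.67, rho = 0.64). Nr1d2 had a negative r with 8 of the other 9 members, down to r = -0.62 with Dbp (rho = -0.56), but most of these values rose to near or above 0 with the axis of the repeat libraries as a covariate. Each of these 4 pairs had a permutation p of 1e-05, the smallest possible, and an adjusted p of 2.81e-05 over 90 relations. Leaving out the 2 animals farthest from the median of the first gene gave 0.77, 0.70, 0.68 and -0.60. Cry1 was more weakly correlated, with an r between -0.26 and 0.21 for the other members.

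The 4 pairs named kept their sign in every batch that could be examined. In the 15 batches with 6 or more animals, Dbp and Ciart were positively correlated in 15 (r from 0.316 to 0.918), Nr1d1 and Cry2 in 15 (0.179 to 0.974) and Per1 and Nr1d1 in 15 (0.107 to 0.948), and Dbp and Nr1d2 negatively in 15 (-0.875 to -0.376). Across strain means, 27 of 45 pairs passed the permutation test (69 strains), 24 of them positive. An absolute r over 0.5 was found in 10 of the 45 pairs, against 18.5% of all pairs of 10429 genes. The median absolute r was 0.31 for the pairs of members and 0.27 for all pairs. Strains of a family and substrains are related, which this permutation does not take into account, so its p-values may be too small. With batch as a covariate 41 pairs passed, 29 positive and 12 negative, but not all batch offsets between strains could be estimated, as described below. Dbp and Ciart (r = 0.78, rho = 0.74), Nr1d1 and Cry2 (r = 0.75, rho = 0.67) and Per1 and Per2 (r = 0.74, rho = 0.71) were highest, each with an adjusted p of 2.81e-05 and, without the 2 farthest strains, an r of 0.74, 0.71 and 0.70. Dbp and Nr1d2, opposed among animals, had an r of 0.16 across strain means (rho = 0.14, permutation p = 0.190, adjusted p = 0.225), and 0.64 with the axis of the repeat libraries as a covariate. Nr1d2 and Npas2 were opposed across strains (r = -0.47, rho = -0.47, permutation p = 5e-05, adjusted p = 0.000125, and r = -0.44 without the 2 farthest strains).

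**Figure D3:**
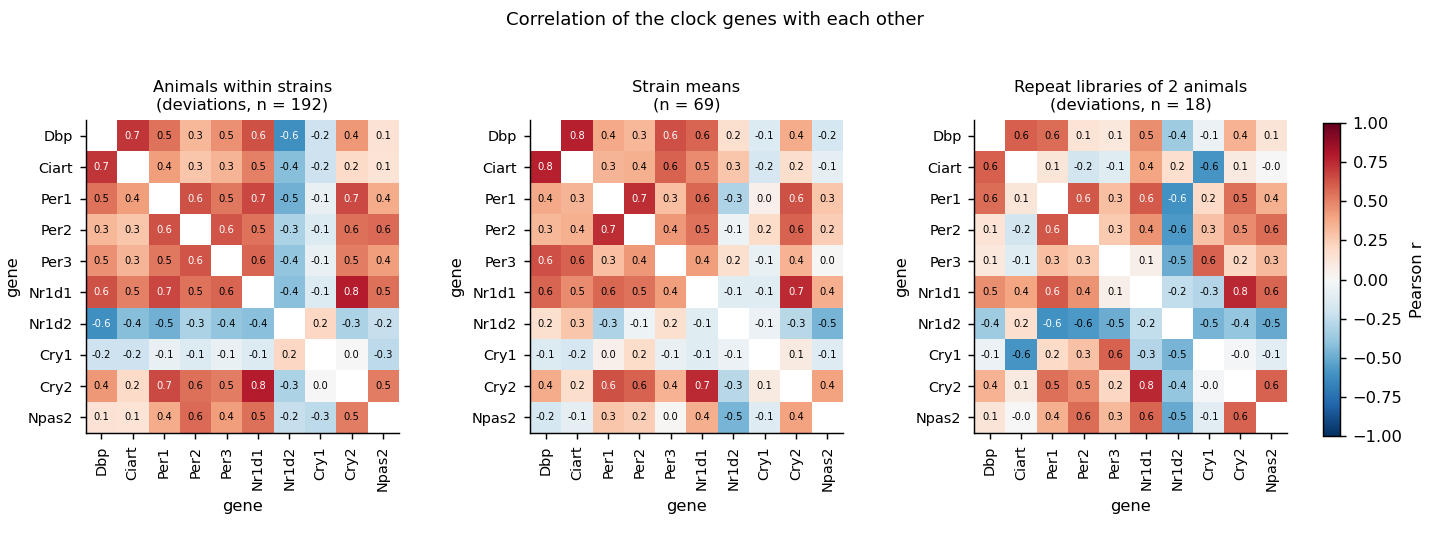
Pearson r between the 10 clock genes (both axes) among animals within strains (left), across strain means (middle) and among repeat libraries of 2 SHR/OlaIpcv animals (right), on a colour scale from -1 to 1. Nr1d2 is opposed to most members in the left and right maps but has r = 0.16 with Dbp in the middle map.

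Opposite movement of Npas2 and Dbp was not detected among animals. Within strains r was 0.15 (rho = 0.12, permutation p = 0.122, adjusted p = 0.162, 192 animals), and 0.18 without the 2 farthest animals. Of the 192 animals, 94 lay on opposite sides of their strain means for the 2 genes and 98 on the same side. The sign was positive in 10 of 15 batches and negative in 5, from -0.52 to 0.73, and r was -0.00033 within HXB/BXH (88 animals), 0.194 within FXLE/LEXF and 0.396 within the classic strains. Across strain means r was -0.18 (rho = -0.18, permutation p = 0.145, adjusted p = 0.183, 69 strains) and -0.14 without the 2 farthest strains. It was -0.49 over 30 HXB/BXH strains, -0.13 over 16 FXLE/LEXF strains and 0.12 over 23 classic strains. Adjusting for batch turned the value across strains to 0.51 (permutation adjusted p = 4.19e-05). Given strain, only 14 batch coefficients could be estimated for 17 batches, so offsets between some groups of strains are not fixed by the data. Strains of the same batch also share the error of its coefficient, which the permutation over strains does not take into account. The reconstructed gene table of the same processing version gave 0.36 within strains (permutation adjusted p = 0.000486) and 0.18 across them.

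Repeat libraries of the same brain also differed in the clock genes. In 12 libraries of SHR/OlaIpcv animal 1, Dbp ran from 10.29 to 11.12, a range of 0.84, against 0.81 for the 69 strain means. Without the batch 11 library it ran from 10.60 to 11.12, a range of 0.52. Animal 4 ran from 10.28 to 10.67 over 6 libraries. Apart from its batch 18 library, animal 4 lay below every library of animal 1 except that of batch 11. Over the deviations of the 18 libraries, r was 0.75 for Nr1d1 and Cry2, 0.60 for Dbp and Ciart, -0.35 for Dbp and Nr1d2 and -0.61 for Per1 and Nr1d2. Both values with Nr1d2 rested on animal 1, since Per1 and Nr1d2 had -0.87 in animal 1 and 0.47 in animal 4, and Dbp and Nr1d2 had -0.46 and 0.01 (rho = -0.11 over all 18). For Npas2 and Dbp r was 0.13. These libraries share 2 brains, so the values are descriptions.

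The main direction of variation among repeat libraries was taken as a technical axis. It was the first principal component over 10401 genes, with the members and the clock pathway genes left out, and held 58.8% of the variance between repeat libraries. Among 190 animals of other strains, within-strain deviations along this axis had an r of 0.75 with Nr1d1, 0.74 with Cry2, 0.71 with Dbp, 0.70 with Per1 and -0.72 with Nr1d2. The r was 0.41 for Ciart, 0.30 for Npas2 and -0.02 for Cry1. In the same animals r with the axis was -0.89 for Clock and ran from -0.62 (Snap25) to 0.75 (Slc17a7) in brain markers. The axis was drawn from 2 brains, and whether it also holds differences between animals was not tested. Where it serves as a covariate, strain means were adjusted with the slope fitted within strains. With the axis as a covariate, pairs past 5% in the permutation test fell from 37 to 23 within strains and from 27 to 22 across strain means. An absolute r over 0.5 within strains was then left in 4 of the 45 pairs, against 4.46% of all pairs of 10429 genes. The median absolute r was then 0.22 for the pairs of members and 0.18 for all pairs. Dbp and Ciart kept an r of 0.66 within strains, whereas the r of Nr1d1 and Cry2 fell to 0.52 (0.43 with the axis taken without the batch 11 library) and that of Per1 and Nr1d1 to 0.30 (0.23). The r of Dbp was then 0.23 with Nr1d1, 0.09 with Per1 and -0.18 with Cry2. Nr1d2 changed sign with several members. With the covariate Nr1d2 had an r of 0.46 with Cry2 (permutation adjusted p = 6.43e-05), 0.28 with Cry1 (0.00315) and 0.25 with Nr1d1 (0.0261) within strains, between -0.02 and 0.06 with Per1, Per2, Per3 and Npas2, and -0.22 with Dbp (0.0962). With the axis taken without the batch 11 library, the r was 0.49 with Cry2 (permutation adjusted p = 7.5e-05), 0.26 with Nr1d1 (0.0211) and -0.29 with Dbp (0.0254). Across strain means Dbp and Nr1d2 were then positively correlated, at 0.64 (permutation adjusted p = 6.43e-05) and, without that library, 0.59 (7.5e-05). Npas2 and Dbp then had an r of -0.10 within strains (permutation adjusted p = 0.388) and -0.39 across strain means (permutation adjusted p = 0.00336). BN-Lx/Cub had a mean axis score of -17.3 and moved from the lowest to the 16th lowest of 69 strains in Dbp with this covariate, whereas SHR/OlaIpcv moved from rank 2 to rank 3.

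**Figure D4:**
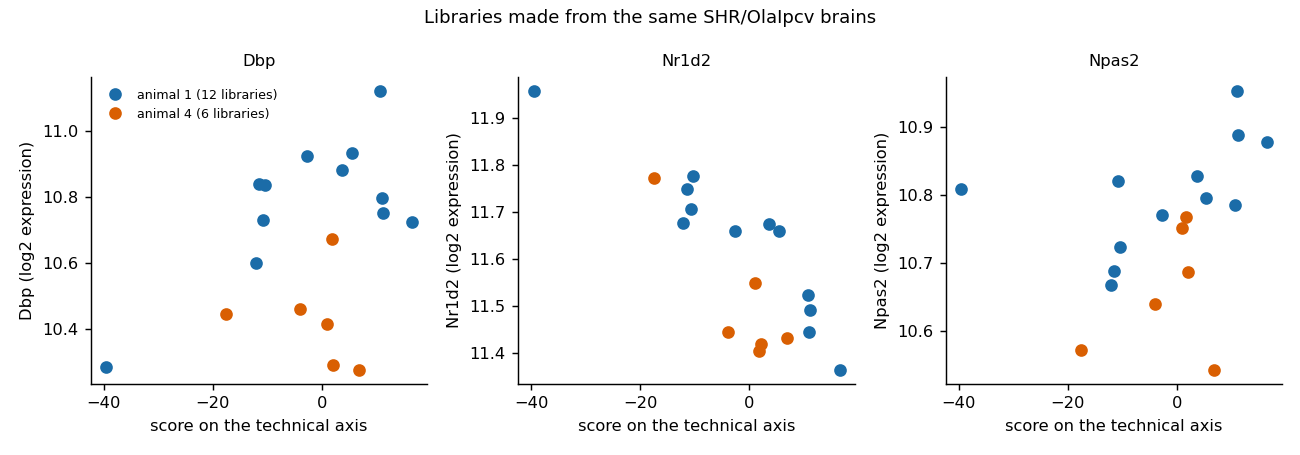
Dbp, Nr1d2 and Npas2 (y axes, log2 expression) in 12 libraries of SHR/OlaIpcv animal 1 and 6 of animal 4 against the score on the technical axis (x axis). The library at a score of -39.6 is that of batch 11, and Nr1d2 falls along the axis (r = -0.90 over the deviations of 18 libraries).

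Among other genes of the clock pathway, Bmal1 was the most opposed to Dbp between strains. Across 69 strain means r was -0.74 (rho = -0.74), the lowest of all genes above the table median, and Clock followed at -0.58. Tef, the D-box activator related to Dbp, had an r of 0.72. With the technical axis as a covariate the values across strain means were -0.39 for Clock and 0.60 for Tef. Within strains r with Dbp was -0.62 for Clock and 0.37 for Tef, and 0.03 and -0.08 with the covariate. Among the 18 repeat libraries, r with Dbp was -0.44 for Bmal1, -0.48 for Clock and 0.69 for Tef. Bmal1 ranged from a strain mean of 10.42 in LEXF8A/Stm to 10.78 in HXB20/Ipcv. It was 10.71 in BN-Lx/Cub and 10.74 in SHR/OlaIpcv, where Dbp was lowest, and 10.45 in FXLE20/Stm and 10.48 in LH/MavRrrc, where Dbp was highest. The relations of Bmal1, Clock and Tef with Dbp were examined after their values were seen and carry no test.

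The Bmal1 relation was negative in each panel and in the 4 gene tables examined, but weak in the reconstructed table. Bmal1 and Dbp had an r of -0.70 in HXB/BXH, -0.86 in FXLE/LEXF and -0.64 in the classic strains, and -0.72 without BN-Lx/Cub and SHR/OlaIpcv. It was -0.74 in the v5 table (45 strains), -0.70 in the v6 table (57 strains), only -0.25 in the reconstructed table (70 strains) and -0.78 with the technical axis as a covariate. Among animals within strains r was only -0.38, and -0.14 with the covariate. Bmal1 was also opposed to Ciart (-0.59), Per3 (-0.56) and Nr1d2 (-0.51) across strain means. Its r with Npas2 was 0.40 over all strains, 0.59, 0.45 and 0.11 in HXB/BXH, FXLE/LEXF and the classic strains, and 0.11 and 0.35 in the v5 and v6 tables. Tef and Dbp had an r of 0.58, 0.84 and 0.76 in the 3 panels and 0.83 in the reconstructed table, but 0.01 in the v5 table.

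**Figure D5:**
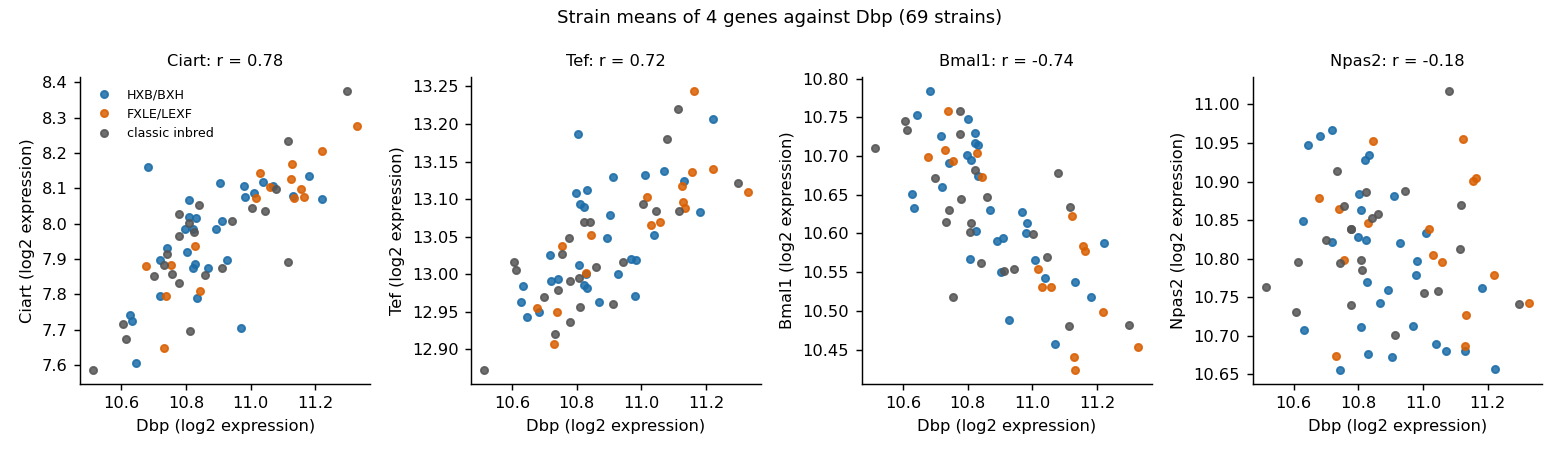
Strain means of Ciart, Tef, Bmal1 and Npas2 (y axes) against Dbp (x axes), in log2 expression, with a point for each of 69 strains coloured by panel. Ciart and Tef rise with Dbp (r = 0.78 and 0.72), Bmal1 falls (r = -0.74), and Npas2 has r = -0.18.

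Of the 22 other pathway genes, 9 differed between strains by the limma F-test, against 36.8% of all genes. These were the activators Bmal1 (R2 64.8%) and Bmal2 (62.2%), the D-box repressor Nfil3 (62.7%), Tef (57.5%), the E-box repressors Bhlhe40 (57.3%) and Bhlhe41 (53.2%), the deubiquitinase Usp2 (53.3%), the kinase Gsk3b (46.3%) and Timeless (46.3%). Those that did not pass included Clock, Rora, Rorb, Hlf, Csnk1d, Csnk1e, Btrc, Cipc, Wee1 and Nampt. In each panel 3 of the 22 (13.6%) passed, against 19.1%, 5.0% and 18.6% of all genes: Bmal1, Bhlhe40 and Nfil3 in HXB/BXH, Bmal1, Nfil3 and Gsk3b in FXLE/LEXF, and Bmal2, Bhlhe41 and Tef in the classic strains.

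Many genes outside the clock followed Dbp among animals as closely as the clock genes did. With the technical axis as a covariate this remained so for every member but Ciart. Of 10428 genes above the table median, 34.2% had an absolute within-strain r over 0.5 with Dbp, and 0.556% did with the technical axis as a covariate. The highest 10 were LOC100911992 (0.80), Tom1, Crat, Taf6, Gpank1, Rtkn, Shfl, Cdc34, Rita1 and Ddx54 (0.77). The lowest 10 were Tmed8 (-0.81), Ralgapb, Cox11, Oga, Azin1, Etnk1, Fam91a1, Ibtk, Ppm1a and Zfp451 (-0.74). On this ordering Ciart, whose level lies below that median, would rank 152, Nr1d1 638 and Per1 1526. With the technical axis as a covariate Ciart would rank 1 (r = 0.66), followed by LOC100911992 (0.60), while Nr1d1 would rank 1830 and Per1 4043. Across strain means the order differed. Among genes above the median Tef was highest (r = 0.72), Per3 ranked 2 and Nr1d1 11, and Ciart (0.78) would stand ahead of them all.

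Marker lists were checked against the same within-strain deviations of Dbp. Animals differed little in markers of brain (mean level 14.01 to 14.40), and markers of the suprachiasmatic nucleus, the site of the central clock, were at mean levels of 5.33 to 6.10 (5 of 6 genes in the table). Immediate early genes, which respond to neuronal activity, had a positive r with Dbp in 8 of 8 genes, against 47.6% of 10428 genes, and their mean had an r of 0.38 with Dbp and 0.31 with Npas2. With the technical axis as a covariate 5 of the 8 were negative (r from -0.08 to 0.19), and across strain means 7 of the 8 were. The r of the list mean with Dbp was 0.29 for blood, 0.23 for pituitary, 0.21 for brain and 0.18 for suprachiasmatic markers. It was 0.12 for choroid plexus, 0.06 for pineal, 0.03 for cerebellum, 0.02 for olfactory bulb and 0.01 for liver markers, -0.07 for glucocorticoid-responsive and 0.06 for temperature-responsive genes. Markers of a list did not move as one, since the r with Dbp ran from -0.40 (Aqp4) to 0.58 (Cx3cr1) in brain markers, from -0.43 (Vip) to 0.39 (Avp) in suprachiasmatic markers and from -0.21 (Gabra6) to 0.28 (Pcp2) in cerebellum markers. The mean of the cerebellum markers had an r of -0.49 with Npas2. The Y-linked genes Eif2s3y, Kdm5d and Uty had an r of -0.42, -0.34 and -0.43 with Dbp, which became 0.16, 0.26 and 0.24 with the technical axis as a covariate. The part of these cells and responses in the clock genes was not tested.

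Of the members, only Dbp differed between batches given strain, and the call was lost under most alternatives. The batch tested is the one given in a label of its own, which differs for some samples from the sequencing batch in their titles. By the limma F-test, Dbp was the only member to pass (adjusted p = 0.0374), against 1.19% of all genes, and 4 members had an unadjusted p under 0.05 (Dbp, Nr1d1, Nr1d2 and Ciart), against 15.4% of all genes. Mean within-strain deviations of Dbp ran from -0.09 in batch 15 (14 animals) to 0.07 in batch 6 (20 animals). Batch 8 (9 animals) had the lowest mean deviation in Nr1d1 (-0.13), Per1 (-0.12), Cry2 (-0.09), Ciart (-0.07), Per2 (-0.06), Npas2 (-0.06) and Per3 (-0.05), and the highest in Nr1d2 (0.06). Dbp did not pass when the sequencing batch of the titles was used (0.216% of all genes called), without LEW/Crl and HXB17/Ipcv (adjusted p = 0.0653), without LEW/Crl, F344/NCrl, SHRSP/A3NCrl and LE/Stm, a set chosen from earlier results in the v5 table that does not hold every library named above, or when any replicate number was left out.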

How the data were processed

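Brain RNA of male rats was sequenced by the study as stranded, ribosomal RNA-depleted libraries, and 232 samples of 74 strains are labelled. For the tables of its publication the authors trimmed reads with cutadapt (version 1.9.1 per the labels), removed ribosomal reads with Bowtie2, aligned with HISAT2 to strain-specific rn6 genomes, quantified with RSEM, removed unwanted variation and put the estimated counts through DESeq2's regularized log. The steps behind the v7.1 table used here are not given in the sources used here beyond the tool names. The deposited values are on a log2 scale, from their range and these methods. The tables used here hold no counts, so no count model was used and depth is unknown. A LEXF9/Stm library whose column and labels name different batches was taken by its description.

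Libraries were assigned to strain, animal and batch from the labels, and libraries of the same strain and replicate number were averaged. Strain, batch and panel effects were tested with limma 3.58.1 in R 4.3.3 on all 20859 genes, with Benjamini-Hochberg adjustment at 5%. The panel contrasts used strain means. Pair correlations were tested by 100000 permutations within strains or over strains and adjusted over 90 relations. The permutation over strains treats related strains as exchangeable. Both tests were checked on simulated data. The main tests used no pseudocount or filter. Genes above the table median were used for the likeness to Dbp, the ratio of repeat to animal SD and the background of gene pairs. They were also used for the technical axis and the comparison of animals with strain means. Nothing states that animals came from separate litters, so p-values measure the spread between these samples. Named genes were the 10 members, 22 other clock pathway genes, the end strains of each member and the 10 genes most and least correlated with Dbp. Some pathway genes are not reported here by name. The members, lists and tests were chosen with earlier results of these data known. Promoter sequences are from RefSeq (GRCr8), and figures were drawn with matplotlib 3.10.9.

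Replicate numbers did not pair the samples: over 5927 pairs of animals of different strains with the same number, the median correlation of deviations was 0.0232, against -0.0107 for other pairs, and 67 of 192 animals correlated best with their own number. Alternatives were batch as a covariate, the replicate number as a block, centring of each library, 1 library per animal, 3 other gene tables, left-out strains and replicates and, added after the data were seen, SHR/OlaIpcv left out, LEW/Crl and HXB17/Ipcv left out, and the technical axis as a covariate with and without the batch 11 library.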

Additional observations from a re-analysis of the deposited data

How the results depend on the processing

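Of 139 alternative values for the main comparisons, 109 kept their direction and their side of the threshold or lay within 1.5 times the count reported, and of 138 for single members 120 did. The strain effect called 3 members in the reconstructed gene table. Leaving out the animals of a replicate number gave 4 to 6 members over all strains, 2 to 3 in HXB/BXH, 0 to 6 in FXLE/LEXF, 1 to 3 in the classic strains, 0 in each panel contrast and 0 for batch. It gave 24 to 36 pairs within strains and 23 to 25 across strain means, and an r of Npas2 with Dbp of 0.0082 to 0.374 within strains and -0.197 to -0.0960 across them. Without replicate 2 the value of 0.374 passed (permutation adjusted p = 0.0119). Fewer animals enter each of these fits. With animals in place of strain means, strain as a random block and batch as a covariate, 3 members passed in FXLE/LEXF against classic inbred and 1 in HXB/BXH against FXLE/LEXF, and batch was not tried alone. With batch as a covariate 41 pairs passed across strain means, and Npas2 and Dbp had an r of 0.51 across strain means, under the limit on batch offsets given above. The batch effect called 0 members with the batch of the title, 0 without LEW/Crl, F344/NCrl, SHRSP/A3NCrl and LE/Stm and 0 without LEW/Crl and HXB17/Ipcv. The v5 table gave 15 pairs across strain means. The reconstructed table gave an r of Npas2 with Dbp of 0.36 within strains and 0.18 across them. With the technical axis as a covariate, 23 pairs passed within strains (19 without the batch 11 library), and the r of Npas2 with Dbp was -0.10 within strains (-0.15) and -0.39 across strain means (-0.39 without that library). The cause of these changes was not tested.

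With the replicate number as a block, the strain effect called 7 members over all strains, 5 in HXB/BXH, 4 in FXLE/LEXF and 3 in the classic strains, and 36 and 27 pairs passed within and across strains. The r of Npas2 with Dbp was 0.11 and -0.20 under this replicate block, which moved none of these counts by more than 1.5 times. The samples share only a number, so the block is no pairing. Depth limits cannot be given, because the table holds no counts.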

Other observations

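Npas2, which encodes a partner of Bmal1 in the forebrain, was also set beside genes outside the clock. These relations were picked after their values were seen and carry no test. Among animals within strains (192 animals), Npas2 had an r of 0.58 with Egr1 and 0.44 with Fosb, both immediate early genes, and -0.02 with Fos. With the technical axis as a covariate, these were 0.52, 0.36 and -0.11. Dbp had an r of 0.35 with Egr1 and -0.04 with this covariate.

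Genes that respond to glucocorticoids had no common direction with Npas2, and the mean of the 7 genes had an r of -0.01. The r was -0.54 for Tsc22d3, -0.37 for Sult1a1, 0.0039 for Pdk4, 0.05 for Sgk1, 0.11 for Nfkbia, 0.32 for Errfi1 and 0.48 for Fkbp5, a cochaperone of the glucocorticoid receptor. With the covariate the values for Tsc22d3 and Fkbp5 were -0.51 and 0.42. Dbp had an r of -0.18 with Tsc22d3 and 0.08 with Fkbp5. Hsph1, a heat shock protein, had an r of -0.44 with Dbp within strains and -0.43 across strain means, and 0.18 and 0.01 with Npas2. Hspa1b and Dnajb1, other heat shock genes of the same list, had an r of 0.30 and 0.17 with Dbp within strains. With the covariate the values with Dbp were -0.44 for Hsph1, 0.04 for Hspa1b and -0.26 for Dnajb1. These genes share libraries with the clock genes, and neither stress nor activity of the animals is given in the labels.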
